A study of Mus musculus with 55 samples.

Results

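The 9 forkhead genes examined here, Foxc1, Foxc2, Foxf1, Foxf2, Foxd1, Foxd2, Foxd3, Foxl1 and Foxl2, are regulators of embryonic development. They were taken by name from the 47937 genes of the bulk RNA-seq count table and followed across all 16 islet libraries and in the chromatin-state map of wild-type islets. The libraries came from pancreatic islets of male C57B6/J mice in which Eed, a core subunit of the Polycomb repressive complex PRC2, was intact (wild type), deleted on 1 allele (heterozygous) or deleted on both (Eed -/-, called βEedKO). Deletion used a floxed Eed allele and a Cre driven by the rat insulin promoter, so only insulin-expressing cells and any others with activity of that promoter lose Eed, and controls were littermates. Wild type and βEedKO were sampled at 8 weeks of age with 3 libraries each, and at 25 weeks with 3 and 2 libraries. Heterozygous islets gave 3 libraries at 8 weeks and 2 at 25 weeks. A library holds the islets of 1 or 2 animals, except both βEedKO libraries at 25 weeks, which pool at least 4 animals each. Whole islets were sequenced, so fewer cells of a type and less RNA per cell cannot be told apart.

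Forkhead factors bind DNA through a winged-helix domain and many of them act in narrow windows of embryogenesis. PRC2 deposits H3K27me3, and in differentiated cells this mark typically covers the CpG-rich start sites of developmental regulators that the cell type does not use. A start site that carries H3K27me3 together with the activation mark H3K4me3 is called bivalent. The usual sites of action of these genes lie largely outside the endocrine pancreas, in mesoderm, mesenchyme, neural crest, kidney stroma and gonad.

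The promoters show what these start sites share in sequence. RefSeq promoter windows on GRCm38.p6, from 250 bases before to 50 after the start of the gene, were matched for 6 of the 9 genes and not for Foxf1, Foxc2 and Foxl1. For Foxl2 the RefSeq start lies 319 bp downstream of the GENCODE start used in all other results, so that its window begins 69 bp inside the gene by GENCODE and is not printed, while for the other 5 the starts differ by at most 25 bp. The 3 windows below are shown because their genes had the widest ratios, or lower bounds of a ratio, of βEedKO to wild type at 25 weeks among these 5, and capitals mark matches to the motifs searched on both strands. They lie at chr13:98353995-98354294 on the plus strand for Foxd1, chr4:114908849-114909148 on the minus strand for Foxd2 and chr13:31625566-31625865 on the plus strand for Foxf2.
Foxd1: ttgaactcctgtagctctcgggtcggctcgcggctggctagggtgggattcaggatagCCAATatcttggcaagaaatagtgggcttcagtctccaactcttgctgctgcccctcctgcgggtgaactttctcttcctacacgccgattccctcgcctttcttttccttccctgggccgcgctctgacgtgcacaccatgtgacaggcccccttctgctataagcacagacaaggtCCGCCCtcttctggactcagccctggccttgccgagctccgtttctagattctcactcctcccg
Foxd2: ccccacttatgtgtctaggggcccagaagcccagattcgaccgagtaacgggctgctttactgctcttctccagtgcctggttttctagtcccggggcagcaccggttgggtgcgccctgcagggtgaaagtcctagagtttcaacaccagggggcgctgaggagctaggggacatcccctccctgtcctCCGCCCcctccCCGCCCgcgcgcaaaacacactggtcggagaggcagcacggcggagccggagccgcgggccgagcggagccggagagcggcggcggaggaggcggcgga
Foxf2: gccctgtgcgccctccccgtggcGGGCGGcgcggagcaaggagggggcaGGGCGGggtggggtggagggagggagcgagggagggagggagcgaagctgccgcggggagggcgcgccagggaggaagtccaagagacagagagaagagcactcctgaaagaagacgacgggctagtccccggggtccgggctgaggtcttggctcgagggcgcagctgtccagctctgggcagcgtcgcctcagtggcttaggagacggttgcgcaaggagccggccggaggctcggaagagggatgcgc

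The 6 windows were rich in CpG, with the Foxl2 window read as RefSeq places it. GC content was 57.7% for Foxd1, 67.7% for Foxd2, and 71.3% for both Foxf2 and Foxl2, against a median of 52.7% over 32851 promoters. Foxc1 held 32 CpG dinucleotides, Foxf2 and Foxl2 27 each, Foxd2 26, Foxd3 25 and Foxd1 15, where the median promoter held 7 and the upper quartile was 20. Foxd1 was thus the poorest of the 6, with more CpG than 65.4% of all promoters, and Foxc1 the richest with more than 90.5%. The GC box GGGCGG was found in 5 of the 6 windows, all but Foxd3, and in 35.7% of all promoters. The CCAAT box CCAAT was found in Foxc1 and Foxd1 and in 37.4% of all promoters. The TATA box TATAAA and the forkhead core TAAACA were found in none of the 6 and in 13.6% and 13.4% of all promoters. No motif searched contains another, and a missing match says only that these letters are not in the window.

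In wild-type islets all 9 genes started in bivalent chromatin. The map gives each 200 bp bin of the autosomes a letter from A to X with no measured level. Letter L stands for bivalent chromatin with high H3K4me3 and M for bivalent chromatin with high H3K27me3. Foxc1, Foxf1, Foxf2, Foxd2 and Foxl2 started in L, and Foxc2, Foxd1, Foxd3 and Foxl1 started in M. The state over most of the gene body was M for 9 of 9, and the bins 200 bp to either side of each start were also L or M. Of 20445 protein-coding genes in the map, 12.5% started in L and 5.74% in M.

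The Polycomb domains around the genes differed in length. The unbroken run of bivalent and Polycomb states, K to P, around the start had a median of 26.8 kb. Foxl2, on chromosome 9 at 98955288-98958543, lay in the shortest run at 4.8 kb, and L to O covered 71.1% of the 5 kb to either side of its start. Foxd2, on chromosome 4 at 114906282-114908873 on the minus strand, lay in the longest at 46 kb, a run that also holds Foxe3 and Foxd2os. Foxc1 lay in a run of 19.8 kb, Foxf1 of 25.6 kb, Foxf2 of 25.8 kb that ends beside 0.4 kb of the mixed state R, Foxd3 of 28.2 kb and Foxd1 of 31.2 kb. Foxc2 and Foxl1 shared a run of 26.8 kb. For the 8 genes other than Foxl2, states L to O covered at least 96% of the 10 kb centred on the start.

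**Figure D1:**
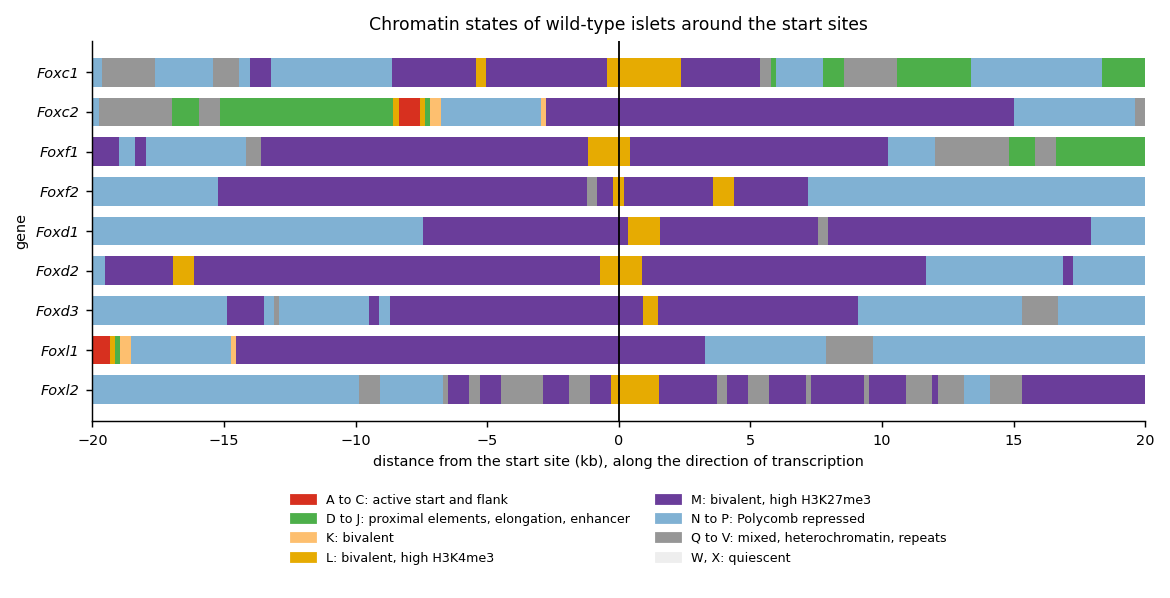
Chromatin states of wild-type islets around the start of each of the 9 genes, with distance from the start in kb on the x axis, read in the direction of transcription, and one bar per gene. Colours group the state letters. Every bar carries bivalent states L or M at 0, and around Foxl2 the bivalent states are broken up most.

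Several of the genes are neighbours. Foxf1 (8:121084386-121088144), Foxc2 (8:121116171-121118895) and Foxl1 (8:121127940-121130644) lie on the plus strand of chromosome 8, with starts 31785 bp apart between Foxf1 and Foxc2 and 11769 bp between Foxc2 and Foxl1, and Mthfsd, on the minus strand, lies between Foxf1 and Foxc2. Foxf2 (13:31625816-31631403) and Foxc1 (13:31806633-31812476) lie on chromosome 13, as does Foxd1 (13:98354242-98359305), and Foxd3 (4:99656299-99658622) lies on chromosome 4 with Foxd2. Coordinates are GRCm38 and every gene but Foxd2 is on the plus strand. Of the 9 genes, 7 have no intron, while Foxf1 has an intron of 1344 bp and Foxf2 of 3225 bp. Reads can therefore not be separated from unspliced RNA or genomic DNA by splicing for those 7.

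The library totals ranged from 4645393 to 22925359 reads in genes. The shallowest was wild-type replicate 2 at 25 weeks, where 3 reads correspond to 0.654 CPM, the count scaled to library size, against 0.121 to 0.259 CPM elsewhere. Eed itself, counted over all exons and all islet cells, was 29.4 ± 4.89 CPM in wild type and 14.4 ± 0.809 in βEedKO at 8 weeks (SD, n = 3 each). At 25 weeks it was 23.2 ± 4.66 (SD, n = 3) and 14.9 ± 0.961 CPM (SD, n = 2). Heterozygous islets held 17.2, 17.1 and 20.5 CPM at 8 weeks and 16.3 and 16.9 CPM at 25 weeks, under every wild-type library and above every βEedKO library of their age. Within each age the highest βEedKO value was under the lowest wild-type value, although edgeR's quasi-likelihood test gave an adjusted p of 0.0881 at 8 weeks and 0.142 at 25 weeks. The 8 markers of β cells fixed as a list summed to 122300 to 218300 CPM in wild type at 25 weeks and to 13860 and 17180 CPM in βEedKO, with 7 of the 8 called lower, so the β-cell markers of these islets stand far below those of the controls at that age. At 8 weeks none of the 8 was called, and 0 passed an unadjusted p under 0.05.

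At 25 weeks the 9 genes were low or undetected in control islets and present at 1 CPM or more in both βEedKO libraries without exception. Their summed level was 2.08 to 5.26 CPM in the 11 wild-type and heterozygous libraries of both ages, 14.9 to 18.3 CPM in βEedKO at 8 weeks, and 59.7 and 101 CPM in βEedKO at 25 weeks. The number of genes at 1 CPM or more was 0 to 3 in the controls, 3 or 4 in βEedKO at 8 weeks and 9 in βEedKO at 25 weeks. CPM values use TMM-scaled library sizes. Levels below are given for each library in the order of replicate numbers.

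**Figure D2:**
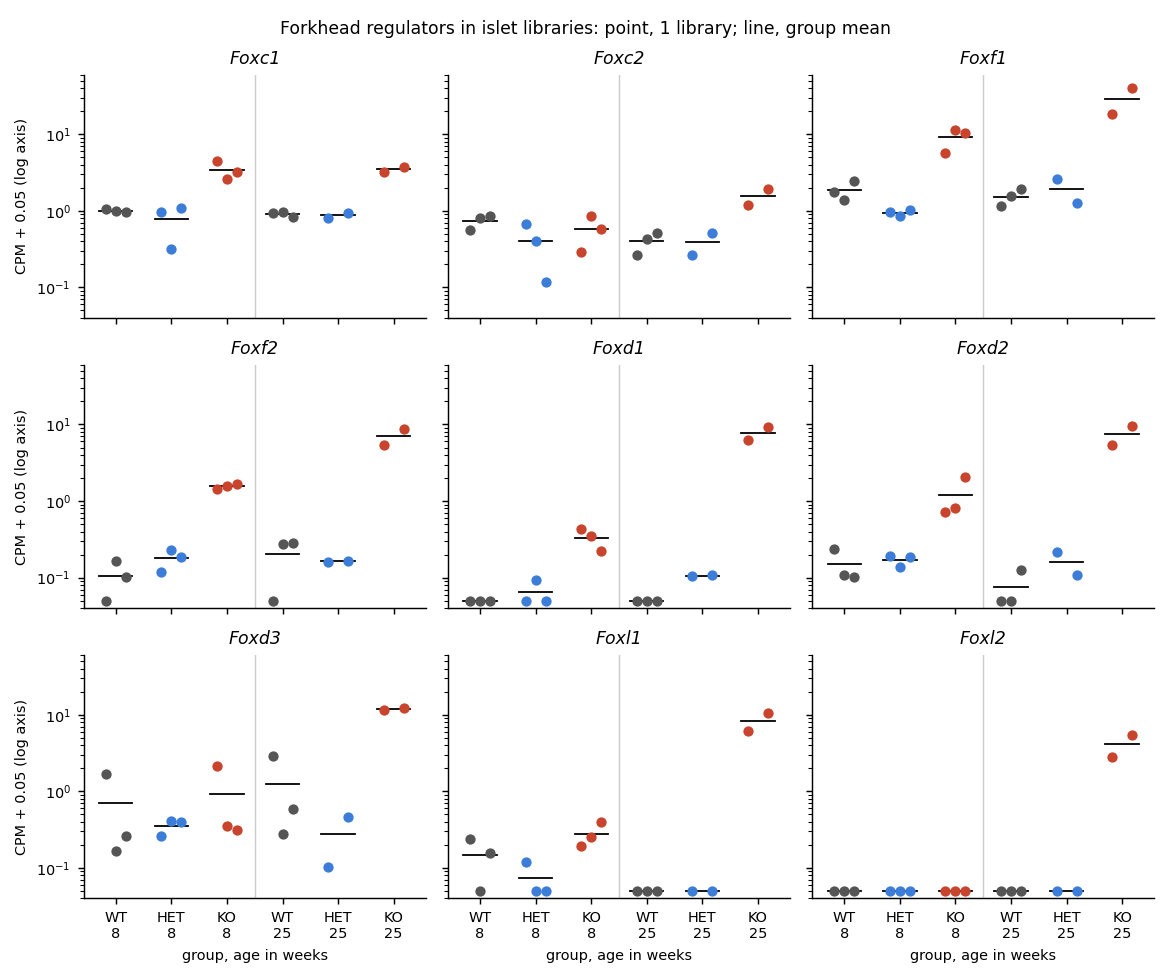
CPM of each of the 9 genes (y axis) in each of the 16 libraries, by genotype and age (x axis), with a bar at each group mean. The βEedKO libraries at 25 weeks lie above every control library of that age in all 9 panels, and Foxl2 is at 0 everywhere else.

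Foxf1 and Foxf2, which pattern the mesenchyme around gut and lung, were higher at both ages. Foxf1 was 1.71, 1.34 and 2.38 CPM in wild type and 5.59, 11.4 and 10.2 CPM in βEedKO at 8 weeks. At 25 weeks it was 1.09, 1.50 and 1.86 CPM in wild type and 18.1 and 39.7 CPM in βEedKO. The heterozygous libraries, at 0.905, 0.798 and 0.964 CPM at 8 weeks and 2.56 and 1.22 CPM at 25 weeks, lay under the wild-type libraries at 8 weeks and beside them at 25 weeks, and no βEedKO library overlapped the controls. Foxf1 rose by a log2 fold change of 2.32 (SE 0.41, adjusted p = 0.0463 by edgeR) at 8 weeks and 4.18 (SE 0.47, adjusted p = 0.000966) at 25 weeks.

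Foxf2 went from near the detection limit to a clear level. It was 0, 0.116 and 0.0529 CPM in wild type, from 3 reads in all, and 1.37, 1.50 and 1.64 CPM in βEedKO at 8 weeks, a ratio of 25.6 whose 95% counting interval was 8.45 to 127. At 25 weeks it was 0, 0.226 and 0.232 CPM in wild type and 5.40 and 8.75 CPM in βEedKO. The heterozygous libraries held 0.0696 to 0.177 CPM at both ages, below every βEedKO library. The adjusted p by edgeR was 0.0401 at 8 weeks, and the log2 fold change at 25 weeks was 5.17 (SE 0.78, adjusted p = 0.00397).

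Foxc1 and Foxc2, regulators of paraxial mesoderm, eye and vessel development, differed in their calls, with Foxc1 called higher at 25 weeks and Foxc2 at neither age. Foxc1 was 1.01, 0.930 and 0.900 CPM in wild type and 4.45, 2.56 and 3.20 CPM in βEedKO at 8 weeks, and 0.872, 0.902 and 0.773 CPM against 3.19 and 3.67 CPM at 25 weeks. The βEedKO levels at the 2 ages overlapped each other, and neither overlapped wild-type or heterozygous libraries. Its log2 fold change was 1.84 (SE 0.38, adjusted p = 0.0834 by edgeR) at 8 weeks, which missed the threshold of 0.05, and 1.95 (SE 0.42, adjusted p = 0.0214) at 25 weeks. Foxc2 was 0.507, 0.756 and 0.794 CPM in wild type and 0.237, 0.802 and 0.519 CPM in βEedKO at 8 weeks, which overlap. At 25 weeks Foxc2 was 0.218, 0.376 and 0.464 CPM in wild type and 1.14 and 1.89 CPM in βEedKO. The groups were apart there, but the log2 fold change of 1.96 had a 95% interval from 0.46 to 3.47 and an adjusted p of 0.128 by edgeR, so it was not called.

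Foxd1 and Foxd2, factors of the embryonic kidney stroma and mesenchyme, were nearly silent in controls. Foxd1 had no read in the 6 wild-type libraries of both ages. In βEedKO it was 0.379, 0.301 and 0.173 CPM at 8 weeks, from 16 reads, and 6.31 and 9.23 CPM at 25 weeks, from 312 reads. Against 3 reads over the wild-type group, the rise was at least 5.26-fold at 8 weeks (adjusted p = 0.118 by edgeR) and at least 84.4-fold at 25 weeks (adjusted p = 0.00359). Foxd2 was 0.190, 0.0581 and 0.0529 CPM in wild type and 0.663, 0.752 and 1.99 CPM in βEedKO at 8 weeks (adjusted p = 0.12). At 25 weeks Foxd2 had 1 read in wild type, at 0, 0 and 0.0773 CPM, and was 5.32 and 9.51 CPM in βEedKO, 248 times as high, counting interval 44.3 to 9840 (adjusted p = 0.00229). For both genes the βEedKO libraries stood clear of every wild-type and heterozygous library at each age.

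Foxd3, a factor of pluripotent and neural crest cells, was uneven among controls. It was 1.65, 0.116 and 0.212 CPM in wild type and 2.09, 0.301 and 0.260 CPM in βEedKO at 8 weeks, and 2.83, 0.226 and 0.541 CPM in wild type at 25 weeks. Replicate 1 of both genotypes at 8 weeks and replicate 2 of wild type at 25 weeks were high, and the groups overlapped at 8 weeks. These were also the libraries with the highest summed level in their group of 6 Schwann cell and glial markers, at 34.4, 39.4 and 88.0 CPM, where the other wild-type and βEedKO libraries at 8 weeks held 9.26 to 15.2 CPM and the other wild-type libraries at 25 weeks 19.6 and 23.7 CPM. At 25 weeks Foxd3 was 11.4 and 12.2 CPM in βEedKO, above every control library, while the same markers summed to 80.9 and 28.8 CPM there and none of the 6 was called. None of the 6 passed an unadjusted p under 0.05 either. The part of Schwann cells or glia in the Foxd3 level was not tested. The log2 fold change at 25 weeks was 3.41 (SE 1.26, 95% interval 0.63 to 6.20, adjusted p = 0.151 by edgeR), not called.

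Foxl1 and Foxl2 were called at 25 weeks and not at 8 weeks. Foxl1, a factor of the fibroblasts below the gut epithelium, was 0.190, 0 and 0.106 CPM in wild type and 0.142, 0.201 and 0.346 CPM in βEedKO at 8 weeks, which overlap. At 25 weeks it had no read in the 3 wild-type and 2 heterozygous libraries and was 6.16 and 10.6 CPM in βEedKO, at least 92.8-fold higher than wild type (adjusted p = 0.00382 by edgeR). Foxl2, which maintains ovarian granulosa cells, had no read in the 14 libraries other than βEedKO at 25 weeks, where it was 2.74 and 5.40 CPM, at least 46-fold higher than wild type (adjusted p = 0.0346). For Foxl2 at 8 weeks, 0 reads in βEedKO and in wild type leave a level below that of 3 reads undetectable.

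At 25 weeks 7 of the 9 genes were called higher in βEedKO than in wild type, all but Foxc2 and Foxd3, where 4.58% of 18685 genes tested were. The median log2 fold change was 5.17 over the 9 and 0.03 over all genes tested. At 8 weeks 2 of 9, Foxf1 and Foxf2, were called higher, where 0.428% of all genes were. All 9 passed the filter on low counts, which asks for 0.578 CPM in 2 libraries before TMM scaling, but Foxd1, Foxl1 and Foxl2 reached this in the βEedKO libraries at 25 weeks alone. These 3 could enter the test only by being high there, so the count of 7 and the median describe the genes and are no support for a rise of the set. Of the 6 that passed without those libraries, Foxc1, Foxf1, Foxf2 and Foxd2 were called and Foxc2 and Foxd3 were not. Foxf2 and Foxd2, at no more than 0.232 and 0.190 CPM in wild type, passed only through βEedKO libraries of both ages. Their calls, and the 2 of 9 at 8 weeks, are therefore no support for a rise of the set either. With the replicate number as a block, 4 of 9 were called at 25 weeks, with adjusted p of 0.112 for Foxc1, 0.0507 for Foxd1 and 0.0793 for Foxl2, and 0 of 9 at 8 weeks, with 0.265 for Foxf1 and 0.402 for Foxf2. Leaving out replicate 3 or 4 of wild type, or either βEedKO library, at 25 weeks left 5 of 9 at that age and removed Foxc1 and Foxl2. At 8 weeks both calls held without βEedKO replicate 1 at that age, Foxf2 alone held without wild-type replicate 2 at 25 weeks, and neither held without any other of the 11 libraries of the fit.

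**Figure D3:**
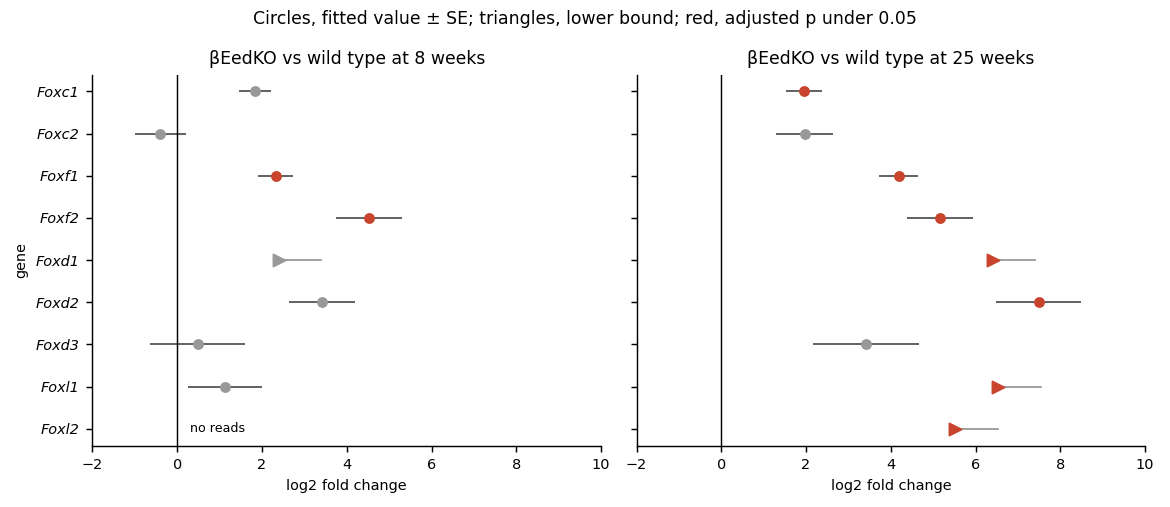
Log2 fold change of βEedKO over wild type (x axis) for the 9 genes (rows) at 8 and 25 weeks, with the SE as a bar, called genes in red, and a triangle with a tail at the lower bound where wild type had no read. At 25 weeks every symbol lies above 0, and Foxl2 had no reads at 8 weeks.

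The heterozygous libraries gave a further control. None of the 9 genes was called between heterozygous and wild type at either age by edgeR, where 0% of 18828 genes were. Over all genes, 210 at 25 weeks and 2743 at 8 weeks had an unadjusted p under 0.05, and DESeq2 called 3 and 407. Among the 9, 0 at 25 weeks and 1 at 8 weeks had an unadjusted p under 0.05, and DESeq2 called 0 at both ages. Against heterozygous islets at 25 weeks, 8 of 9 were called higher in βEedKO, all but Foxc2 (adjusted p = 0.133), where 5.41% of all genes were. Foxd3 was among them with a log2 fold change of 5.64 (SE 1.53, adjusted p = 0.0377). Foxd1, Foxl1 and Foxl2 were at 0.379 CPM or less in every library other than βEedKO at 25 weeks. They could enter this fit only through that group, so the count of 8 is no support for a rise of the set. At 8 weeks Foxc1, Foxf1, Foxf2, Foxd1 and Foxd2, 5 of 9, were called higher than heterozygous, where 3.60% of all genes were. Of these, Foxd1, Foxf2 and Foxd2 could enter this fit only through βEedKO libraries. The 5 of 9 is therefore no support for a rise of the set either. Leaving out any of the 4 libraries at 25 weeks reduced the 8 to 5, without Foxc1, Foxd3 and Foxl2, and at 8 weeks leaving out a heterozygous library or a βEedKO library other than replicate 1 reduced the 5 to between 1 and 3. These comparisons share their βEedKO libraries with those against wild type. Markers of other cell types also differed from heterozygous islets at 8 weeks, where 2 of 8 β-cell markers (Ucn3 and Slc2a2) were called lower and 2 of 5 duct (Krt19 and Spp1), 1 of 4 alpha-cell (Irx2) and 1 of 6 macrophage markers (Ptprc) higher, and 0 of 10 mesenchyme markers were called by edgeR or had an unadjusted p under 0.05. At 25 weeks 8 of 8 β-cell markers were called lower, and 2 of 5 duct, 1 of 10 mesenchyme, 1 of 4 alpha-cell and 1 of 6 macrophage markers higher. Their part in the forkhead levels was not tested.

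In every βEedKO library the level was above that in every wild-type and heterozygous library of the same age for 9 of 9 genes at 25 weeks, where 21.8% of genes showed this with 2 against 5 libraries. At 8 weeks it held for 5 of 9, Foxc1, Foxf1, Foxf2, Foxd1 and Foxd2, where 4.19% of genes showed it with 3 against 6 libraries. The genes that did not were Foxc2, Foxd3, Foxl1 and Foxl2. Foxd1, Foxl1 and Foxl2 passed the filter only through the βEedKO libraries at 25 weeks, and Foxf2 and Foxd2 only through βEedKO libraries. The 9 of 9 and the 5 of 9 therefore describe the genes and are no support for a rise of the set.

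Between 8 and 25 weeks the level in βEedKO islets rose for Foxd1, by a log2 fold change of 4.65 (SE 0.62, adjusted p = 0.025 by edgeR), and for Foxl1, by 5.14 (SE 0.84, adjusted p = 0.026). These were 2 of 9, where 1.02% of all genes were called higher. Foxd1 and Foxl1 entered the test only by being high in βEedKO at 25 weeks. The count therefore describes the genes and is no support for a rise of the set. Foxl2, at 0 reads and then 36 and 134 reads, had an adjusted p of 0.0637, and DESeq2 called 6 of 9. Neither Foxd1 nor Foxl1 was called without βEedKO replicate 4 or 5 at 8 weeks, or without either βEedKO library at 25 weeks. In wild type none of the 9 was called between the ages by edgeR, where 0% of all genes were. Of all genes 1898, and of the 9 genes 1, had an unadjusted p under 0.05 there, and DESeq2 called 139 and 0. The difference between the βEedKO effects at the 2 ages was called for none of the 9 by edgeR, where 0.0910% of all genes were called larger at 25 weeks. Among them 4 were under 0.05 before adjustment. Foxl1 had the lowest adjusted p of these by edgeR, 0.127, and was the 1 gene called by DESeq2. That an effect passed the threshold at 25 weeks and not at 8 weeks is therefore not by itself a difference between the ages.

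Per kilobase of exon the genes fell into an order that changed with genotype. In wild type at 25 weeks Foxf1 was highest at 0.614 ± 0.159 CPM per kb, with libraries overlapping those of Foxd3 at 0.516 ± 0.612 (SD, n = 3). In βEedKO at 25 weeks Foxf1 was again highest at 12.0 ± 6.32 CPM per kb, apart from Foxd3 at 5.07 ± 0.234 (SD, n = 2). Foxl1 at 3.09 ± 1.15, Foxf2 at 2.99 ± 1.00 and Foxd2 at 2.86 ± 1.14 CPM per kb overlapped one another. Foxd1 at 1.53 ± 0.407 and Foxl2 at 1.25 ± 0.578 overlapped, as did Foxc1 at 0.587 ± 0.0574 and Foxc2 at 0.557 ± 0.196 CPM per kb. Foxc1, ranked 3 of 9 in wild type, ranked 8 here, below 3 genes that had no wild-type read.

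The pair of βEedKO libraries at 25 weeks was uneven. Replicate 3 was higher than replicate 2 for 9 of 9 genes, by a ratio of 1.07 for Foxd3 to 2.19 for Foxf1 with a median of 1.66. The TMM factors of these libraries were 0.760 and 1.50 for replicates 2 and 3. Replicate 2 held 290700 CPM of the 6 acinar markers and replicate 3 held 9370 CPM, against 22010 to 159300 CPM in wild type of that age. The part of the acinar RNA in the difference between these libraries was not tested.

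Several of the 9 genes are also used by mesenchymal cells, so markers of other cell types were read beside them. The 10 mesenchyme markers summed to 545 and 403 CPM in βEedKO replicates 2 and 3 at 25 weeks against 184 to 263 CPM in wild type and 172 and 237 CPM in heterozygous islets. Of the 10, 4 were called higher at that age, namely Col1a1 (log2 fold change 1.84), Col1a2 (1.51), Dcn (1.89) and Pdgfra (2.79), and none was listed at 0 in any library. Positive fold changes were seen at that age for 8 of the 10. Col6a3 was 10.2, 10.5 and 9.20 CPM in wild type and 7.83 and 8.46 CPM in βEedKO. Relative to the wild-type mean the mesenchyme sum was 2.49 and 1.84 times as high, whereas the sum of the 9 forkhead genes was 14.7 and 24.8 times as high, with the order of the replicates turned around. At 8 weeks the mesenchyme sum was 201 to 292 CPM in βEedKO and 163 to 179 CPM in wild type. There 0 of 10 markers were called by edgeR, 5 had an unadjusted p under 0.05, and 10 of 10 had a positive fold change. In heterozygous islets at 8 weeks 1 library had a mesenchyme sum of 357 CPM, while the summed forkhead level in the 3 libraries of that group stayed at 2.08 to 2.92 CPM. The part of mesenchymal cells in the forkhead levels was not tested.

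Other lists moved at 25 weeks as well. Duct markers summed to 674 and 542 CPM in βEedKO against 228 to 297 CPM in wild type, with 2 of 5 called higher, Krt19 and Spp1. Spp1 alone made up 467 and 315 CPM of the βEedKO sums. Krt7 went the other way, at 218, 188 and 168 CPM in wild type and 104 and 124.5 CPM in βEedKO, and was not called. Macrophage markers summed to 359 and 126 CPM against 61.1 to 115 CPM, with 2 of 6 called higher, Ptprc and Cd14. Of 4 alpha-cell markers 1 was called higher and of 8 endothelial markers 1 was called lower. None of the 6 acinar, 6 Schwann and glial or 3 delta and PP markers was called, nor did any have an unadjusted p under 0.05. With the replicate block 5 β-cell, 3 mesenchyme, 1 duct and 0 macrophage markers were called, without Ins1, Iapp, Pdgfra, Krt19, Ptprc and Cd14, in a fit added after the data were seen. Their part in the forkhead levels was not tested.

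**Figure D4:**
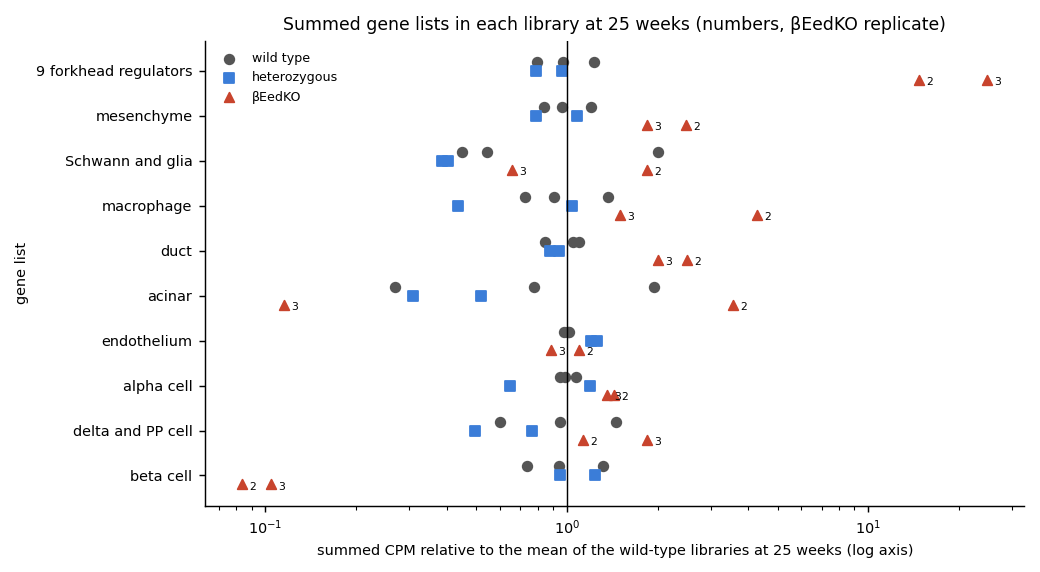
Summed CPM of each marker list and of the 9 forkhead genes in the βEedKO libraries at 25 weeks, as a ratio to the wild-type mean of that age (log axis), with the replicate number beside each point. The forkhead sum lies at 14.7 and 24.8, the mesenchyme sum at 2.49 and 1.84, and the β-cell sum at 0.0838 and 0.104.

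A list of 34 other forkhead genes divided by the chromatin at their start. In wild type at 25 weeks the highest per length were Foxa2, a regulator of endoderm and islet cells, at 25.4 ± 7.17 CPM per kb, Foxp4 at 14.5 ± 2.09 and Foxo3, a target of insulin signalling, at 9.96 ± 4.01 CPM per kb (SD, n = 3). Of the 22 that passed the filter, 2 were called higher at 25 weeks, where 4.58% of all genes were, and none lower. These were Foxa1, an endoderm pioneer factor, and Foxe1, a thyroid factor, and both start in state M. Foxa1 was 0, 0.376 and 0.309 CPM in wild type and 10.4 and 30.4 CPM in βEedKO (log2 fold change 6.12, SE 1.22, adjusted p = 0.0149 by edgeR). Foxe1 had no wild-type read and reached 2.97 and 2.90 CPM in βEedKO (adjusted p = 0.0149). It was at 0.379 CPM or less in every library other than βEedKO at 25 weeks, so it entered the test only by being high there. With the replicate block Foxe1 was no longer called and 1 of 22 was. Without βEedKO replicate 3 or wild-type replicate 3 at 25 weeks neither was called, without wild-type replicate 4 Foxa1 was lost, and without βEedKO replicate 2 Foxe1 was lost.

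Of 31 such genes in the map, 13 started in the active states A or B and 12 in L or M. All 13 of the active class passed the filter and none was called at 25 weeks, with log2 fold changes from -0.83 to 0.18. Of these Foxo1 and Foxj2, named here after their values were seen, came closest. Foxo1 was 72.3, 78.3 and 72.9 CPM in wild type and 49.3 and 37.5 CPM in βEedKO (log2 fold change -0.83, SE 0.26, adjusted p = 0.0908 by edgeR), and it was called lower without wild-type replicate 1 at 8 weeks, by DESeq2, in the fit of all 16 libraries and with the pooled control. Foxj2 was 40.5, 54.1 and 50.4 CPM in wild type and 29.8 and 28.01 CPM in βEedKO (log2 fold change -0.80, SE 0.27, adjusted p = 0.116 by edgeR), and it was called with the pooled control. Both were called lower against heterozygous islets at 25 weeks, with adjusted p of 0.0491 and 0.0316 by edgeR. Of the 12 in L or M, 5 passed the filter and 2 were called higher. At 8 weeks 1 of the 22 was called higher, where 0.428% of all genes were. This was Foxp2, a neural and lung factor, at 16.2, 12.9 and 15.1 CPM against 4.38, 4.59 and 4.66 CPM in wild type (log2 fold change 1.69, SE 0.23, adjusted p = 0.0116 by edgeR). With the block 0 of 22 were called at 8 weeks. Foxp2 was lost without any 1 wild-type library or βEedKO replicate 5 at that age. Against heterozygous islets at 8 weeks 2 of the 22 were called higher and 2 lower by edgeR, where 678 and 214 of 18828 genes were.

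**Figure D5:**
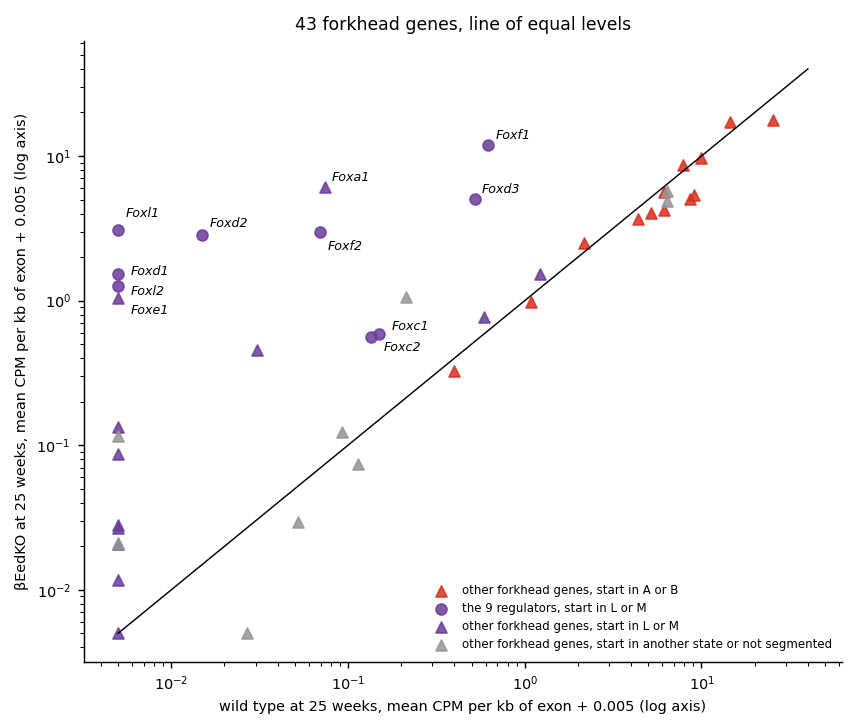
Mean CPM per kb of exon in βEedKO (y axis) against wild type (x axis) at 25 weeks for the 9 regulators and the 34 other forkhead genes, with 0.005 added for the log axes and colours for the state at the start. Genes starting in A or B lie along the line of equal levels, and the 9 regulators lie above it.

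Among all genes tested at 25 weeks, 17.3% of the 3414 that start in L or M were called higher, 13.9% of the 2512 in L and 27.1% of the 902 in M, against 0.429% of those in state A. Of the 9 genes, 5 of 5 in L and 2 of 4 in M were called. Foxl2 in L and Foxd1 and Foxl1 in M entered the test only through βEedKO at 25 weeks. These counts therefore describe the genes and are no support for an excess over the shares of all genes. Of the others, Foxc1, Foxf1, Foxf2 and Foxd2 in L were called, and Foxc2 and Foxd3 in M were not. Among these, Foxf2 and Foxd2 passed the filter only through βEedKO libraries. At 8 weeks 2.02% of genes that start in L or M were called higher. Most genes with a bivalent start were thus not called at either age.

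Genes beside the 9 were read from the annotation within 100 kb of their starts, 44 counted genes of which 15 passed the filter. At 25 weeks 2 were called higher, where 4.58% of all genes were. Fendrr, a long non-coding RNA whose start lies 1276 bp from that of Foxf1 on the opposite strand, was 0.436, 0.301 and 0.619 CPM in wild type and 10.4 and 15.4 CPM in βEedKO (log2 fold change 4.75, SE 0.82, adjusted p = 0.00721 by edgeR). Foxl2os, which is antisense to Foxl2 and overlaps it by 12 bp, was 0, 0 and 0.0773 CPM in wild type and 11.2 and 12.0 CPM in βEedKO (adjusted p = 0.00419). It was at 0.346 CPM or less in every library other than βEedKO at 25 weeks, so it entered the test only by being high there. Whether the counting used strand is not stated, so reads in the overlap of Foxl2 and Foxl2os cannot be told apart. Fendrr was lost without replicate 3 of either genotype at 25 weeks, and without wild-type replicate 2 of that age the count was 4, with Foxd2os and Gm12688. Gm12688, a non-coding gene whose start lies 1316 bp from that of Foxd3, and 1700018A04Rik, which starts 24 bp from Foxf2, were chosen after their values were seen. Gm12688 was 10.9 and 11.0 CPM in βEedKO and 1.96, 0.226 and 0.0773 CPM in wild type at 25 weeks, high in the same wild-type library as Foxd3, and was not called (adjusted p = 0.113). At 8 weeks 0 of the 15 were called by edgeR, where 0.428% of all genes were called higher, and 2 had an unadjusted p under 0.05. DESeq2 called 1, Fendrr, at 1.14, 1.45 and 0.346 CPM against 0.127, 0 and 0 CPM in wild type (adjusted p = 0.0877 by edgeR). The predicted microRNA genes Gm27530, Gm27516 and Gm23366, which lie within Foxf1, Foxf2 and Foxd3, had no read in any library. A read there also overlaps the surrounding gene, and how such reads were counted is not given, so 0 reads does not show that they were silent. 1700018A04Rik had 1 read over all 14 libraries other than βEedKO at 25 weeks, and 7 and 16 reads there.

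Mthfsd lies between Foxf1 and Foxc2 but starts in the active state A, unlike these genes. It was not called at 25 weeks, with a log2 fold change of 0.18 (SE 0.27, 95% interval -0.42 to 0.79, adjusted p = 0.778 by edgeR), while Foxf1 on one side and Foxl1 on the other were called and Foxc2 was not. Mthfsd was 28.9 and 30.9 CPM in βEedKO and at most 27.7 CPM in the controls of that age, a separation that 21.8% of genes showed.

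Across the 16 libraries the levels of the 9 genes were positively correlated, to different degrees. The 36 pairwise Pearson correlations of log2 CPM ranged from 0.393 to 0.956 with a median of 0.79, and 16 were over 0.8. These points share library, depth and the high βEedKO libraries at 25 weeks, and the values are a description. The closest pair was Foxd1 and Foxl1, which lie on different chromosomes. Of all genes that passed the filter, those most like Foxd1 over the 16 libraries were Pitx1 (r = 0.989), Six3 and Gm43050 (0.986 each), and those most like Foxl1 were Hoxc10 (0.98), Dscaml1 and Pitx1 (0.978 each). Foxf2 was close to Six2 (0.973) and Slc17a7 (0.972), and Foxd2 to Gm3764 (0.981) and Slc6a3 (0.973). Foxf1 was closest to Cx3cl1 (0.974), B4galnt4 (0.971) and Trank1 (0.97), and Foxc1 to Col9a2 (0.975), Dpysl5 (0.972) and Shd (0.951). Foxd3 was closest to Igkv5-39 (0.955), Dpysl4 (0.937) and Cr2 (0.936). For Foxl2 the likeness rests on 2 libraries, and several genes, Emx2os and Hoxd11 among them, reached r = 1. Foxc2 had the least close matches, Fam189a2 (0.893), Agps (0.859) and Nup107 (0.858).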

How the data were processed

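RNA-seq counts of 16 islet libraries in 6 groups (genotype by age) and a chromatin-state map of wild-type islets were used. The counts, as the authors deposited them, are raw reads in each gene made with TopHat2 2.0.13 on GRCm38 and featureCounts of Subread 1.5.0-p1 with Gencode M9 from paired reads of TruSeq RNA v2 libraries. Whether strand was used is not given in the sources used here. They deposited the map as EpicSeg state letters in bins of 200 bp of averaged replicates, with no level. No sample column was left unused (0). Other data of the series, such as single-cell and ChIP-seq signal, were not analysed here.

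Names, positions and start sites came from a later GENCODE release of the same build, which matched 47224 of 47937 counted genes by identifier and left 713 unmatched. Tests used edgeR 4.0.16 and limma 3.58.1 under R 4.3.3. TMM factors and filterByExpr left 18685 genes in the 11 wild-type and βEedKO libraries, fitted as 4 groups, and 18828 in all 16, fitted as 6 groups for comparisons with heterozygous islets. Genes were called at a Benjamini-Hochberg adjusted p under 0.05 in the two-sided quasi-likelihood test over all genes tested, and the common biological coefficient of variation was 0.456. Standard errors are the log2 fold change over the square root of F. Floors of 3 reads and 95% exact counting intervals cover counting error only. Scripts were tested on simulated data. Which animals gave which library is not stated, so p-values measure the spread between these libraries. No 2 libraries of a group agreed within sampling noise.

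No source ties a replicate number to a litter or batch. Deviations from group means correlated between same-numbered wild-type and βEedKO libraries at 0.457 and 0.163 (replicates 1 and 4, 8 weeks) and 0.176 and 0.255 (replicates 2 and 3, 25 weeks), so the numbers were treated as pairs in an alternative fit with a block. A pair with different numbers (wild type 3 with βEedKO 5, at 8 weeks) reached 0.45. Other alternatives were library sizes without TMM, DESeq2 1.42.0, no filter, all 16 libraries in 1 fit, wild-type and heterozygous libraries pooled, and leaving out each library.

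The 9 genes and the lists were chosen with earlier results of these data known. Named beside them were other forkhead genes called at either age or among the 3 highest in wild type per length, neighbours within 100 kb that were called or overlapped, and the 3 genes most correlated with each of the 9 having a mean of 0.5 CPM or more. A gene that met this rule is left out and not reported here.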

Additional observations from a re-analysis of the deposited data

How the results depend on the processing

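Counts of calls depended on the test and on single libraries. Over all genes, βEedKO against wild type gave 1234 calls at 25 weeks (DESeq2 2093, pooled control 2649, 392 to 1609 on leaving out a library) and 81 at 8 weeks (DESeq2 393, no filter 137, replicate block 0, pooled control 503, 18 to 135 on leaving out a library). At 25 weeks 69.4% of calls were higher in βEedKO, 91.1% with library sizes alone, which moved the median log2 fold change of all genes from 0.03 to 0.27, and 57.5% with the replicate block. Of the 9 genes, 7 were called at 25 weeks (block 4, 5 to 7 on leaving out a library); Foxl2 was lost with DESeq2, Foxc1 without a filter, and the pooled control called 9. At 8 weeks 2 were called (DESeq2 5, library sizes alone 1, block 0, pooled control 5, 0 to 2 on leaving out a library). The change between ages in βEedKO gave 2 (DESeq2 6, 0 to 2 on leaving out a library) and its difference from wild type 0 (Foxl1 alone, 1, with DESeq2 and without a filter). Against heterozygous islets the count was 8 at 25 weeks (5 without any of the 4 libraries) and 5 at 8 weeks (1 to 5). Neighbours gave 2 calls at 25 weeks (DESeq2 4, pooled control 6, 1 to 4 on leaving out a library) and 0 at 8 weeks (1, Fendrr, with DESeq2, no filter, pooled control or all 16 libraries in 1 fit). Other forkhead genes gave 2 at 25 weeks (block 1, pooled control 5, 0 to 3 on leaving out a library) and 1 at 8 weeks (block 0, pooled control 2, 0 to 1). The fold change of Foxd3 at 8 weeks ranged from -1.16 to 2.37 on leaving out a library, with -0.01 without wild-type replicate 3 of that age, and was not called in any of these. Over the 9 genes, other forkhead genes, neighbours and marker lists compared with wild type, the replicate block changed no call other than those named with it. The cause was not tested. Depth limits the genes with few wild-type reads, most of all in wild-type replicate 2 at 25 weeks.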
